A study of Mus musculus with 18 samples.

Results

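Collagen chain genes encode the alpha chains of the collagens, the most abundant proteins of the extracellular matrix. Members were taken as every row of the deposited table of counts per gene whose symbol is Col, a type number, the letter a and a chain number, with at least 10 reads in 3 or more libraries. Of 44 such rows among 55536 genes, 39 met the rule, and all 39 were also among the 17590 genes that passed the low-count filter of the test. The rows left out were Col8a2 and Col26a1, which reached 10 reads in 2 libraries each, and Col2a1, Col9a1 and Col22a1, which reached 10 reads in 0 libraries. Just inside the rule stood Col24a1, with 10 reads in 3 libraries, Col11a1 in 5 and Col4a3 in 8. Of the 39 members, 28 had at least 10 reads in all 18 libraries.

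RNA was sequenced from pancreatic islets of male mice aged 17 weeks. The mice were knockout (KO, ZNT8 -/-), heterozygous (Het, ZNT8 +/-) or wild type (WT, ZNT8 +/+) for Slc30a8, the gene of the zinc transporter of insulin granules. All 3 genotypes were on a NOD.SCID background (strain NOD.CB17-Prkdcscid/NCrCrl), whose Prkdc mutation leaves the mice without mature T and B lymphocytes, in the controls as well. Islets were freed by enzyme digestion, purified on a gradient and rested in culture overnight. Those of each genotype were then kept for 24 h with cytokines (IL-1β at 150 pg/ml, TNF-α at 100 pg/ml and IFN-γ at 10 pg/ml) or untreated, giving 6 groups of 3 libraries. The labels name 3 mice but not whether each library is a separate mouse or whether treated and untreated islets came from the same mice. The p-values therefore rest on the spread among these libraries, part of which may be technical. Which stretch of Slc30a8 the mutation removes is not stated in the labels.

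Collagen alpha chains wind around each other into a triple helix in the endoplasmic reticulum, are exported as procollagen and are then trimmed, assembled and cross-linked outside the cell. Fibril-forming types such as collagen I and III give tissue its tensile strength, whereas collagen IV forms the sheet of basement membranes. In mouse islets collagen IV is known from the basement membrane around capillaries, and fibrillar collagen from pericytes, stellate cells and fibroblasts in and around the islet.

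Each library held 22990164 to 29946680 reads assigned to genes, and levels are given as CPM, counts scaled to library size with edgeR's TMM factors. The 7 beta cell markers, among them Ins1 and Ins2, summed to 143559 to 232330 CPM per library, the 5 alpha cell markers to 7097 to 19133 CPM, and no endocrine marker list was near 0. Slc30a8 had 20.8, 23.2 and 20.0 CPM in KO islets with cytokines against 34.5, 43.7 and 46.4 CPM in WT islets with cytokines, and 47.9, 55.9 and 44.0 CPM in untreated KO islets against 98.8, 123 and 125 CPM in untreated WT islets. Het libraries had 32.1, 34.3 and 56.6 CPM with cytokines and 126, 95.7 and 111 CPM untreated. Every KO library lay below every WT library of its treatment. Some libraries stood apart from the others of their group in collagen reads. Untreated Het replicate 1 was the lowest of its group for 21 of the 28 members with 10 reads in every library, untreated KO replicate 3 the highest for 19, and among KO islets with cytokines replicate 2 was the lowest for 25 and replicate 3 the highest for 24. Among WT islets with cytokines replicate 3 was the lowest for 21 and replicate 1 the highest for 22. Untreated KO replicate 3 also had the highest sum of 8 macrophage markers of any library, 358 CPM against 110.2 to 182 CPM in the other 17 libraries.

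The 39 members together took 0.183, 0.114 and 0.319% of the reads in KO islets with cytokines, against 0.280, 0.267 and 0.562% in untreated KO islets. In Het islets the share was 0.134, 0.234 and 0.140% with cytokines and 0.204, 0.470 and 0.506% untreated, and in WT islets 0.282, 0.200 and 0.171% with cytokines and 0.301, 0.342 and 0.320% untreated. Only in WT islets did the shares with cytokines all lie below those of the untreated libraries. The ratio of the highest to the lowest library of a group, as a median over 28 members, was 2.18 in KO islets with cytokines, 1.59 in Het islets with cytokines and 1.69 in WT islets with cytokines. It was 1.57 in untreated KO, 2.09 in untreated Het and 1.20 in untreated WT islets, so that the untreated WT libraries were the closest to each other.

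Reads were spread unevenly over the members. Per length, as FPKM (here the CPM divided by the exon length of GENCODE M21 in kilobases), the mean over 18 libraries was 83.7 for Col1a1, the main chain of collagen I. That length joins the exons of all transcripts of a gene, so levels per length depend on the gene model. The chains of the common collagen IV network had 37.1 FPKM (Col4a1) and 28.3 FPKM (Col4a2). Col3a1, the chain of collagen III, had 31.0 FPKM, and Col18a1, a basement membrane collagen that releases endostatin, had 23.3 FPKM. The collagen V chains Col5a1 and Col5a2, which set fibril diameter, both had 18.3 FPKM, and Col1a2, the partner chain of Col1a1, had 17.5 FPKM. The lowest member was Col24a1, a minor fibril-forming chain, at 0.0279 FPKM. The 5 members with the most reads held 55.8% of collagen reads, and 13 members held 91.4%.

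**Figure D1:**
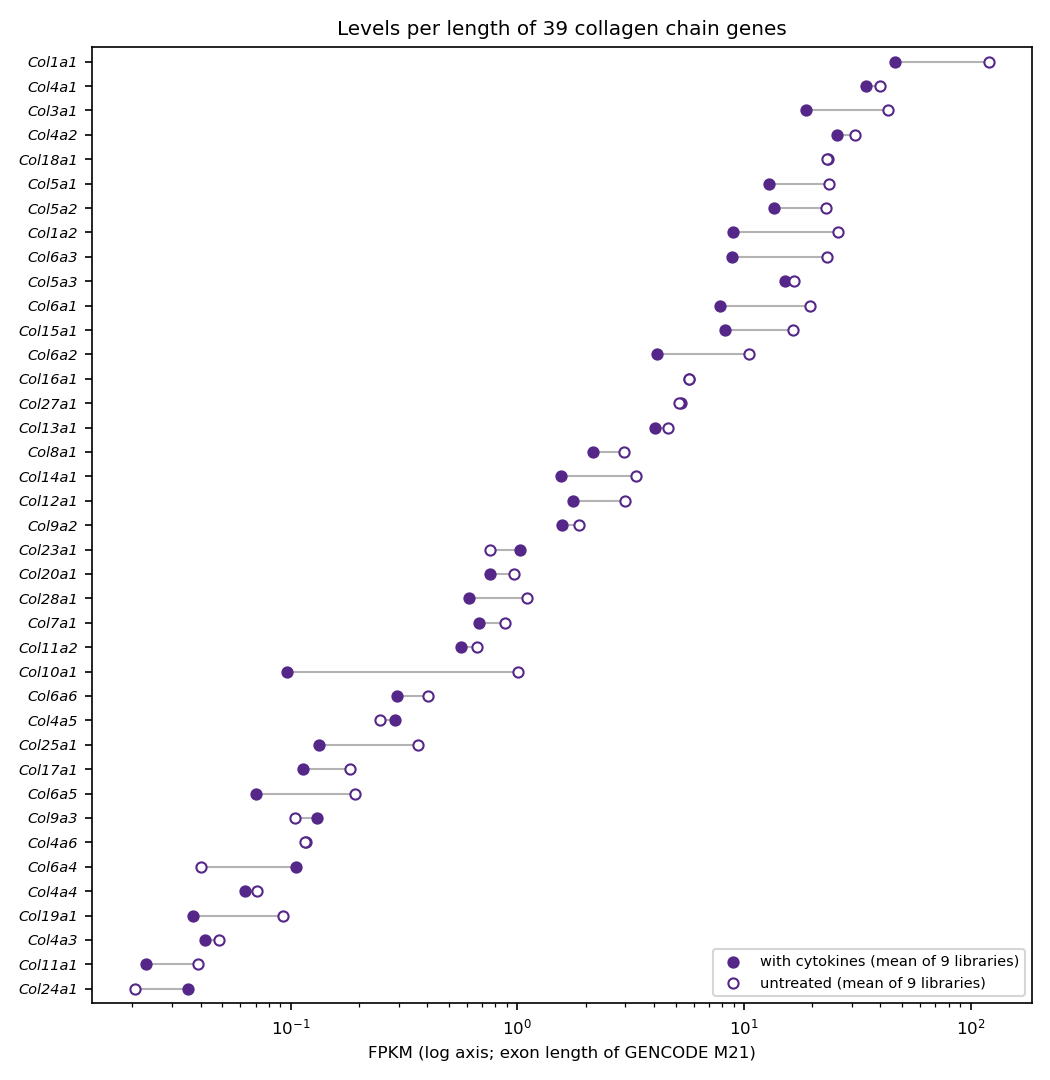
Mean FPKM (log axis) of each of the 39 collagen chain genes over the 9 libraries with cytokines (filled) and the 9 untreated libraries (open), pooled over genotypes. Col1a1 was the highest member at 46.4 FPKM with cytokines and 121 FPKM untreated, and Col10a1 shows the widest gap, 0.0964 FPKM with cytokines and 1.00 FPKM untreated.

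Ratios between chains of the same protein varied little across libraries for some pairs. The level per length of Col4a1 over that of Col4a2 lay between 1.24 and 1.41 in all 18 libraries, with a median of 1.32. Col6a1 over Col6a2, both chains of collagen VI, lay between 1.67 and 2.02, and Col1a1 over Col1a2 between 4.08 and 6.20. These ratios depend on the exon lengths used, 4380 bases for Col6a1, 8326 for Col6a2, 6563 for Col1a1 and 12426 for Col1a2. Without division by length, the mean over 18 libraries was 60.0 CPM for Col6a1 and 60.8 CPM for Col6a2. It was 549 CPM for Col1a1 and 217 CPM for Col1a2. The ratios are therefore not read as proportions of the chains. The ratio of Col6a3, the long chain of collagen VI, to Col6a1 ran wider, from 0.797 to 1.76. Some members are also neighbours on the chromosome. Col4a1 and Col4a2 run head to head on chromosome 8 with start sites 21 bp apart. So do Col4a4 and Col4a3 on chromosome 1 with 72 bp, and Col4a6 and Col4a5 on chromosome X with 1309 bp. Col6a2 and Col6a1 follow each other on the same strand of chromosome 10, and Col3a1 and Col5a2 lie tail to tail on chromosome 1. The gene models of Col4a1 and Col4a2 overlap at their start sites. The labels do not state whether counting used the strand, and without it reads in the overlap cannot be told apart.

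The first question was what 24 h of cytokines did to collagen transcripts in each genotype. With cytokines, most collagen chain genes had negative estimates against untreated islets. These were 30 of 39 members in KO, 35 in Het and 27 in WT islets, and 26 members in all 3 genotypes. Of all genes tested 9487, 9621 and 8923 had negative estimates in KO, Het and WT islets. The sign turned under at least 1 alternative fit for 11, 7 and 10 members. The median log2 fold change over members was -0.66 in KO, -0.65 in Het and -0.18 in WT islets, where that over all 17590 genes tested was -0.03, -0.03 and -0.01. Calls were made by the quasi-likelihood test of edgeR, with p-values adjusted over all genes tested (Benjamini-Hochberg) and a threshold of 0.05. In KO islets 8 members fell and 1 rose, where 16.1% of all genes were called lower, 15.4% higher and 31.5% either way. There DESeq2 called 7 lower and 1 higher, and limma 16 lower and 1 higher. Of all 17590 genes DESeq2 called 5452 and limma 7318 either way in KO islets. In Het islets 14 fell and 1 rose, where 11.8% of all genes were called lower, 12.8% higher and 24.6% either way. For Het islets DESeq2 called 14 lower and 1 higher, and limma 18 lower and 1 higher, where they called 4351 and 5441 of all genes. In WT islets 4 fell and 0 rose, where 13.1% of all genes were called lower, 12.6% higher and 25.8% either way. In WT islets 12 members had an unadjusted p under 0.05 by edgeR, as did 6497 of all 17590 genes. DESeq2 called 5 lower and 0 higher there, and limma 15 lower and 1 higher. Of all genes DESeq2 called 4574 and limma 6814 in WT islets. As shares of the 39 members, the lower calls by edgeR were 20.5% in KO, 35.9% in Het and 10.3% in WT islets, and the Het share was the farthest from that of all genes. This order rests on the fit over all 6 groups. With only the compared groups in the fit, more members were called in WT than in Het islets, as were more of all genes (5467 against 2472).

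Counted by separation of the libraries, the decreases were most frequent in WT islets. The 3 libraries with cytokines all lay below the 3 untreated libraries for 10 members in KO, 11 in Het and 18 in WT islets, where 22.6%, 17.4% and 23.4% of all genes did so. They all lay above for 1 member in KO, 2 in Het and 2 in WT islets, where 20.1%, 17.7% and 23.1% of all genes did so. Without replicate 3 of KO islets in both treatments, 8 members fell in KO islets and 0 rose, and without replicate 1 of Het islets in both treatments 12 fell in Het islets and 0 rose. Leaving out single libraries moved the count most in Het islets, to 6 called members without cytokine replicate 1 and 7 without cytokine replicate 3, and in KO islets to 14 without cytokine replicate 3. In WT islets 7 were called without cytokine replicate 3, of which Col4a5 was higher.

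**Figure D2:**
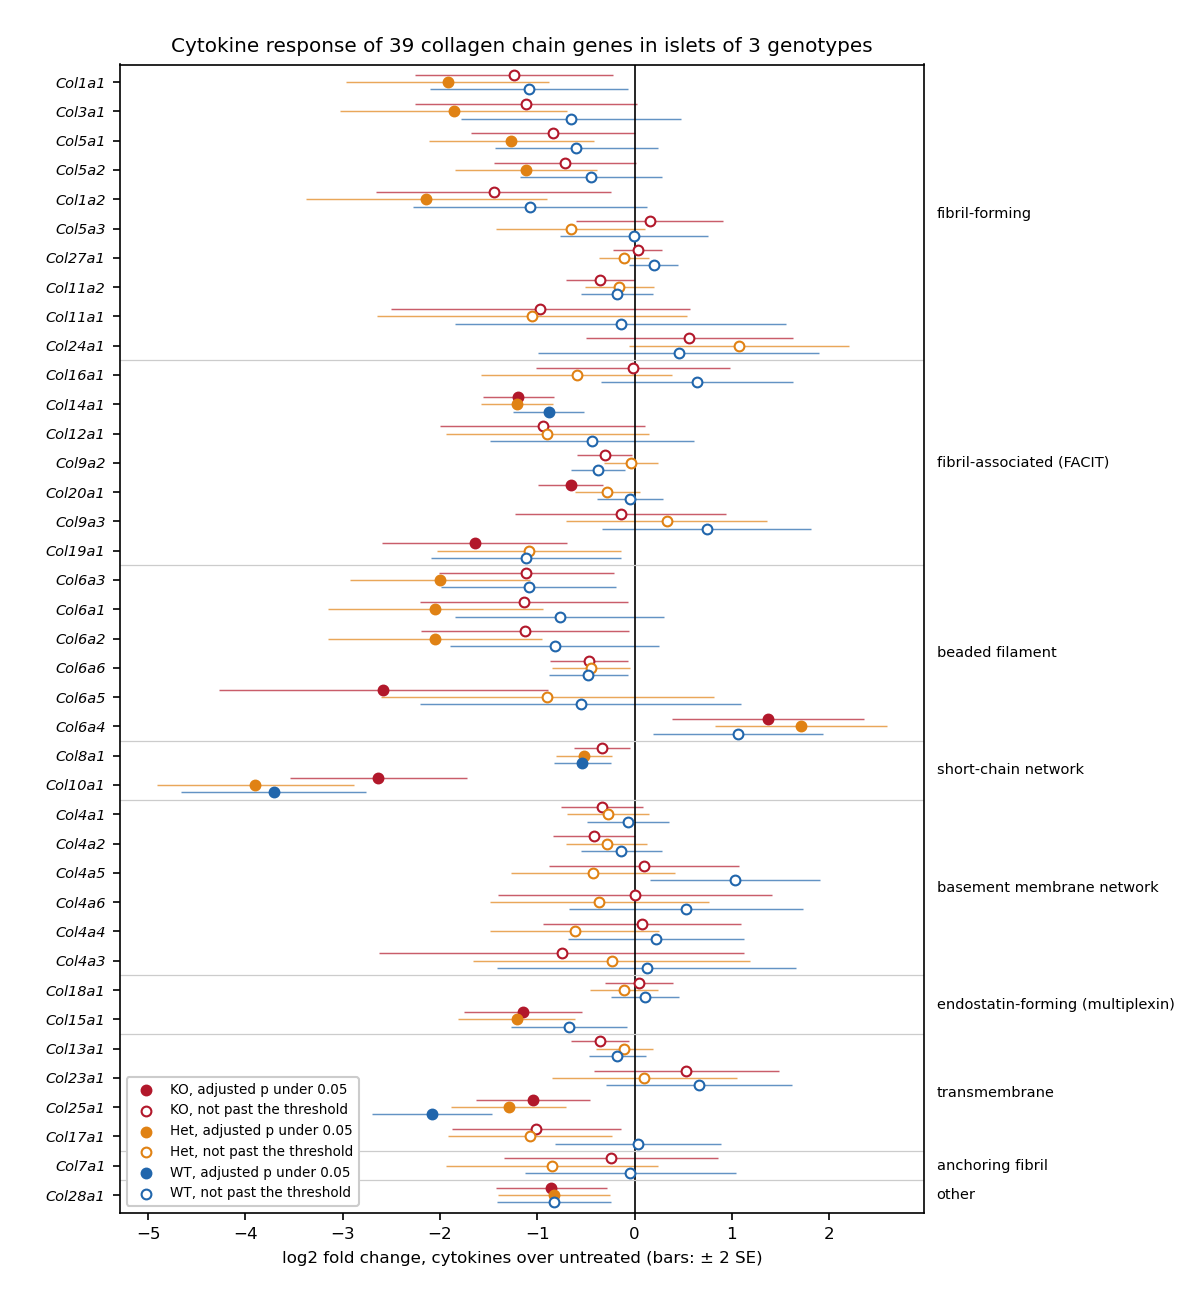
Log2 fold change, cytokines over untreated, of each collagen chain gene in KO (red), Het (orange) and WT islets (blue), with bars of 2 SE on each side and genes grouped by collagen class. Filled points passed an adjusted p of 0.05; Col10a1, Col14a1 and Col25a1 are filled in all 3 genotypes, and Col6a4 is the member filled on the right of 0.

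Col10a1, Col14a1 and Col25a1 fell in all 3 genotypes. Col10a1 (GRCm38, chromosome 10, 34389981 to 34397085, plus strand) encodes collagen X, a short-chain collagen best known from growth plate cartilage. It had 0.388, 0.493 and 0.384 CPM in KO islets with cytokines against 1.93, 3.08 and 2.85 CPM untreated. Het levels of Col10a1 were 0.0387, 0.146 and 0.357 CPM with cytokines against 2.01, 4.20 and 2.22 CPM untreated, and WT levels were 0.455, 0.375 and 0.0784 CPM with cytokines against 3.26, 4.29 and 4.40 CPM untreated. Every library with cytokines lay below every untreated library. These levels rest on 1 to 11 reads per library with cytokines and 51 to 120 reads untreated. The log2 fold change was -2.63 ± 0.46 in KO (SE; edgeR adjusted p = 0.000363), -3.90 ± 0.51 in Het (edgeR adjusted p = 3.56e-05) and -3.71 ± 0.47 in WT islets (edgeR adjusted p = 3.46e-05), the largest decreases among the members in each genotype.

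Col14a1 (chromosome 15, 55307750 to 55520803, plus strand) encodes collagen XIV, which binds the surface of collagen fibrils. It had 10.3, 9.51 and 13.5 CPM in KO islets with cytokines against 25.7, 25.8 and 24.8 CPM in untreated KO islets, a log2 fold change of -1.19 ± 0.18 (edgeR adjusted p = 0.000131). In Het islets it had 8.05, 13.5 and 10.6 CPM with cytokines against 22.1, 23.9 and 28.2 CPM untreated (-1.21 ± 0.18, edgeR adjusted p = 0.000155), and in WT islets 13.3, 10.1 and 9.52 CPM with cytokines against 16.9, 23.6 and 20.4 CPM untreated (-0.88 ± 0.18, edgeR adjusted p = 0.00220). The groups did not overlap in any genotype, and untreated KO replicate 3, which was high in most collagens, was the lowest of its group here. Col25a1 (chromosome 3, 130131501 to 130599877, plus strand), a transmembrane collagen known from neurons and developing muscle, had 2.12, 2.56 and 1.84 CPM in KO islets with cytokines against 6.03, 3.61 and 3.80 CPM untreated (-1.05 ± 0.29, edgeR adjusted p = 0.0126). Het islets had 1.51, 1.82 and 1.82 CPM with cytokines against 4.47, 3.29 and 4.92 CPM untreated (-1.29 ± 0.30, edgeR adjusted p = 0.00453), and WT islets 1.36, 0.834 and 1.61 CPM with cytokines against 6.03, 3.22 and 6.93 CPM untreated (-2.08 ± 0.31, edgeR adjusted p = 0.000128). No library with cytokines reached the lowest untreated library of its genotype. The call in KO islets was lost without cytokine replicate 3 (edgeR adjusted p = 0.0556) or untreated replicate 1 (edgeR adjusted p = 0.0767), in a range over 13 alternatives of 0.00393 to 0.0767.

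The promoters of 4 members whose calls by edgeR differed with cytokines are shown. Col10a1 and Col25a1 fell in all 3 genotypes, Col1a2 fell in Het islets, and Col4a1 did not pass in any genotype. The responses of these genes were not tested against each other. Each window runs from 250 bases before to 50 bases after the RefSeq start of the gene (RefSeq promoter table, GRCm38.p6), 5′ to 3′ on the strand of the gene. The windows are chr10:34389731-34390030 on the plus strand for Col10a1, chr3:130180595-130180894 on the plus strand for Col25a1, chr6:4505368-4505667 on the plus strand for Col1a2 and chr8:11312777-11313076 on the minus strand for Col4a1. The last of these also holds the start site of Col4a2, which runs the other way. Capitals mark matches on either strand to the letters TATAAA of the TATA box, CCAAT of the CCAAT box, GGGCGG of the GC box, TGANTCA of the AP-1 motif and the NF-kB consensus. None of the matches overlap each other in these 4 windows.
Col10a1: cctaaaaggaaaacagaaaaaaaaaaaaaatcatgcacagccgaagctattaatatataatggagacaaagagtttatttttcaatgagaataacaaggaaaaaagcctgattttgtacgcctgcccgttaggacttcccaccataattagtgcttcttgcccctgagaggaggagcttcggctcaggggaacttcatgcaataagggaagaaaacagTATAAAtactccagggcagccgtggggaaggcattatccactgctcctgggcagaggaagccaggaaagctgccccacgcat
Col25a1: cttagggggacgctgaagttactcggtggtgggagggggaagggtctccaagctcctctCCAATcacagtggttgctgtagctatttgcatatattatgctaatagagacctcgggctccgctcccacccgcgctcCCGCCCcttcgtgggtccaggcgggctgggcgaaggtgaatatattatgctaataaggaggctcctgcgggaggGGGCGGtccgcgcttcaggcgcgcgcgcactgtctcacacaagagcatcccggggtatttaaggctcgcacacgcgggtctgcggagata
Col1a2: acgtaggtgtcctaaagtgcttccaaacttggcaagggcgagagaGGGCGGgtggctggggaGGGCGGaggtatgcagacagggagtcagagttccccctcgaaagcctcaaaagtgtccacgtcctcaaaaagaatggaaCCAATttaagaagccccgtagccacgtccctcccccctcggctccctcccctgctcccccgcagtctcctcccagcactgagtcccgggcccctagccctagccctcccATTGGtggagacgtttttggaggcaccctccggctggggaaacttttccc
Col4a1: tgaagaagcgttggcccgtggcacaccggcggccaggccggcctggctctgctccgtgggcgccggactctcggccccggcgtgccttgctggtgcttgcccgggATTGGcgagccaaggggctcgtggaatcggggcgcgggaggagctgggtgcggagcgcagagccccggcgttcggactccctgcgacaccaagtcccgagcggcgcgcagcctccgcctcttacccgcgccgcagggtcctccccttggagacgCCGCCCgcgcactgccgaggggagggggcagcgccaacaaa

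Counting positions from the start as 1, the Col10a1 window had TATAAA at -32 and no match to the other motifs. The Col25a1 window had CCAAT at -191 and GGGCGG at -114 and -40. The Col1a2 window had CCAAT at -109 and 1 and GGGCGG at -205 and -188, and the Col4a1 window CCAAT at -145 and GGGCGG at 10. The GENCODE M21 models of Col25a1 and Col1a2 begin upstream of these RefSeq starts, at 130131501 and 4504814. Promoter windows were found for 33 of the 39 members, 35 windows in all, without Col1a1 and Col14a1. Of the 35 windows 22 held GGGCGG (62.9%, against 35.7% of all 32851 windows of this length), 12 held CCAAT (34.3% against 37.4%) and 5 held TATAAA (14.3% against 13.6%). The NF-kB consensus was found in 6 windows (17.1% against 8.46%), which belong to Col27a1, Col4a2, Col6a2, Col6a4 and Col9a2, and TGANTCA in 1, that of Col6a1 (2.86% against 7.81%). A match is a description of the letters in the window and not a binding site.

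Col1a1, Col1a2, Col3a1, Col5a1 and Col5a2 were lower with cytokines in every genotype by estimate, and by edgeR 5 of the 10 fibril-forming members fell in Het islets, against 0 in KO and 0 in WT islets. Of all genes edgeR called 11.8% lower in Het, 16.1% in KO and 13.1% in WT islets. In KO islets DESeq2 called 0 and limma 5 of the 10, and in WT islets DESeq2 called 0 and limma 2. At an unadjusted p under 0.05 edgeR gave 2 in KO and 0 in WT islets, where 7300 and 6497 of all 17590 genes reached it. Col1a1 (chromosome 11, 94936224 to 94953042, plus strand) had 334, 176 and 641 CPM in KO islets with cytokines against 699.6, 597 and 1418 CPM untreated. Het levels of Col1a1 were 119, 368 and 149 CPM with cytokines against 368, 984 and 1056 CPM untreated, and WT levels were 412, 301 and 244 CPM with cytokines against 612, 681 and 729.6 CPM untreated. In Het islets 1 library of each treatment met, at 368 CPM, and in KO islets the highest library with cytokines lay above the lowest untreated library, whereas the WT groups did not overlap. The log2 fold change was -1.24 ± 0.51 in KO (edgeR adjusted p = 0.0783), -1.92 ± 0.52 in Het (edgeR adjusted p = 0.0134) and -1.08 ± 0.51 in WT islets (edgeR adjusted p = 0.137). The WT estimate missed the threshold although its groups were separate, in a fit that shares 1 estimate of the spread over all 6 groups.

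Col1a2 (chromosome 6, 4504814 to 4541544, plus strand) followed Col1a1. It had 115, 58.0 and 241 CPM in KO islets with cytokines against 249, 222 and 657 CPM untreated. Het levels of Col1a2 were 36.2, 140.1 and 54.6 CPM with cytokines against 129, 421 and 470.0 CPM untreated, and WT levels were 170.4, 108 and 82.6 CPM with cytokines against 232, 255 and 273 CPM untreated. Its log2 fold changes were -1.45 ± 0.60, -2.14 ± 0.62 and -1.07 ± 0.60 in KO, Het and WT islets (edgeR adjusted p = 0.0817, 0.0191 and 0.212). Col3a1 (chromosome 1, 45311538 to 45349706, plus strand) had 164, 106 and 397 CPM in KO islets with cytokines against 288, 277 and 881 CPM untreated. Het levels of Col3a1 were 79.3, 219.7 and 95.7 CPM with cytokines against 195, 555 and 684 CPM untreated, and WT levels were 267, 191 and 142 CPM with cytokines against 292, 329 and 320.0 CPM untreated. For both genes the KO groups and the Het groups overlapped and the WT groups did not, and the lowest untreated Het library was replicate 1. Col3a1 had log2 fold changes of -1.12 ± 0.57, -1.86 ± 0.58 and -0.65 ± 0.57 (edgeR adjusted p = 0.152, 0.0285 and 0.438).

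The collagen V chains, which help to start fibrils, had smaller estimates than those of collagen I. Col5a2 (chromosome 1, 45374321 to 45503282, minus strand) had 116, 88.3 and 207 CPM in KO islets with cytokines against 189.8, 183 and 302 CPM untreated. Het levels of Col5a2 were 78.1, 174 and 85.9 CPM with cytokines against 140.3, 296 and 296 CPM untreated, and WT levels were 178, 137 and 107 CPM with cytokines against 171, 202 and 202 CPM untreated, with overlap in every genotype. Its log2 fold change was -1.12 ± 0.37 in Het islets (edgeR adjusted p = 0.0367), -0.72 ± 0.36 in KO and -0.45 ± 0.36 in WT islets. Col5a1 had 64.7, 132 and 62.4 CPM in Het islets with cytokines against 106, 235 and 281 CPM untreated (-1.27 ± 0.43, edgeR adjusted p = 0.0405). It had 112, 61.9 and 193 CPM in KO islets with cytokines against 176, 165 and 317 CPM untreated (-0.84 ± 0.42), and 153, 113 and 89.2 CPM in WT islets with cytokines against 162, 181 and 193 CPM untreated (-0.60 ± 0.42). Both overlapped between treatments in KO and Het islets, and the WT groups of Col5a1 were separate. Col5a3, the chain that can replace the others in collagen V, did not pass by edgeR in any genotype and had log2 fold changes of 0.15, -0.65 and -0.01 in KO, Het and WT islets. The minor fibril-forming members Col27a1, Col11a1, Col11a2 and Col24a1 did not pass by edgeR either, with log2 fold changes between -1.05 and 1.08. Limma called Col5a3 lower in Het and Col11a2 lower in KO islets.

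The Het calls of the 5 fibril-forming members rested on few libraries. All 5 were lost without Het cytokine replicate 1, without Het cytokine replicate 3 and with only the compared groups in the fit. For Col1a1 the adjusted p over 13 alternatives ran from 0.000180 to 0.0647, and for Col3a1 from 0.000626 to 0.110. The log2 fold change of Col1a1 in Het islets stayed between -2.59 and -1.64 over these alternatives.

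**Figure D3:**
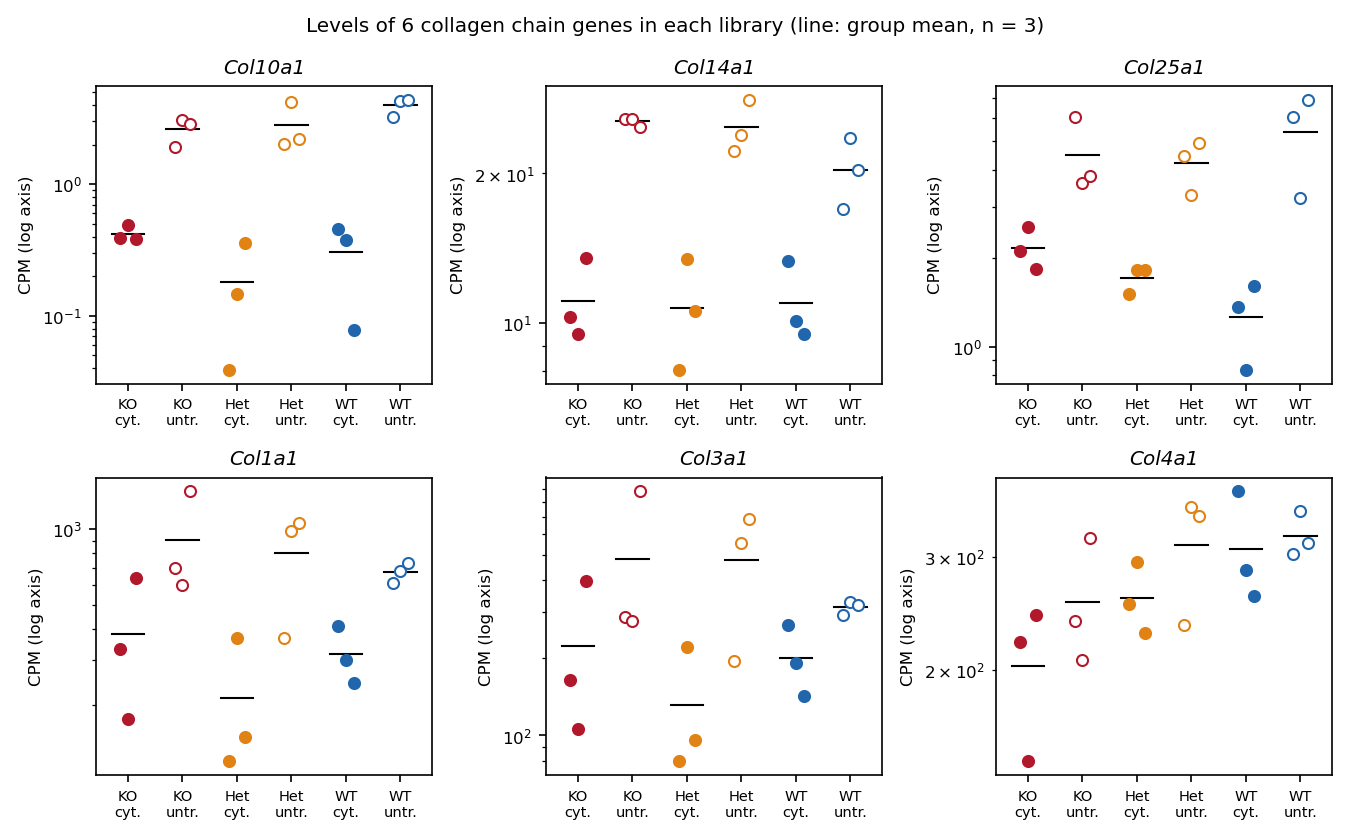
CPM per library (log axes) of 6 collagen chain genes in islets with cytokines (filled) and untreated islets (open) of KO, Het and WT mice, with a line at the mean of 3 libraries. Libraries with cytokines lie apart from untreated ones for Col10a1, Col14a1 and Col25a1 in each genotype, and the treatments overlap for Col4a1.

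Collagen VI chains form beaded filaments near cell surfaces, and 3 of the 6 members of this class fell in Het islets while 1 rose. Of all genes 11.8% fell and 12.8% rose there. In WT islets edgeR and DESeq2 called 0 of the 6, and limma 4 lower and 1 higher. Col6a3 (chromosome 1, 90765923 to 90843971, minus strand) had 86.7, 55.9 and 221 CPM in KO islets with cytokines against 226, 228 and 332 CPM untreated. Het levels of Col6a3 were 56.5, 126 and 59.6 CPM with cytokines against 172, 389.9 and 407 CPM untreated, and WT levels were 161, 98.2 and 90.0 CPM with cytokines against 243, 275 and 226 CPM untreated. The treatments did not overlap in any genotype. The log2 fold change was -2.00 ± 0.46 in Het islets (edgeR adjusted p = 0.00487), a call that was kept under all 13 alternatives, and -1.11 ± 0.45 in KO and -1.09 ± 0.45 in WT islets (edgeR adjusted p = 0.0734 and 0.0910). Col6a1 (chromosome 10, 76708792 to 76726168, minus strand) had 36.1, 19.9 and 65.1 CPM in KO islets with cytokines against 58.0, 56.2 and 152 CPM untreated. Het levels of Col6a1 were 15.7, 41.3 and 18.9 CPM with cytokines against 35.8, 135 and 144 CPM untreated, and WT levels were 50.1, 32.3 and 29.1 CPM with cytokines against 59.1, 69.9 and 61.3 CPM untreated.

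Col6a2 (chromosome 10, 76595762 to 76623630, minus strand) had 40.0, 19.2 and 63.8 CPM in KO islets with cytokines against 54.7, 57.1 and 156 CPM untreated. Het levels of Col6a2 were 17.9, 41.8 and 19.3 CPM with cytokines against 37.6, 141 and 149 CPM untreated, and WT levels were 48.4, 30.5 and 28.6 CPM with cytokines against 61.7, 69.1 and 59.2 CPM untreated. For Col6a1 and Col6a2 the treatments overlapped in KO and Het islets and were separate in WT islets. The log2 fold changes in Het islets were -2.05 ± 0.55 for Col6a1 (edgeR adjusted p = 0.0131) and -2.05 ± 0.55 for Col6a2 (edgeR adjusted p = 0.0127). In KO islets they were -1.14 ± 0.54 and -1.12 ± 0.53, and in WT islets -0.77 ± 0.54 and -0.82 ± 0.54, none of which passed by edgeR, while limma called both genes lower in WT islets. Both Het calls were lost without Het cytokine replicate 1 or replicate 3.

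The other collagen VI members, which lie side by side on chromosome 9 and encode chains that can take the place of the Col6a3 product, had low levels. Col6a4 (chromosome 9, 105989454 to 106096783, minus strand) was the member that rose: it had 0.741, 0.269 and 0.883 CPM in KO islets with cytokines against 0.228, 0.243 and 0.262 CPM untreated (1.37 ± 0.49, edgeR adjusted p = 0.0461), and 1.12, 1.02 and 1.18 CPM in Het islets with cytokines against 0.137, 0.280 and 0.589 CPM untreated (1.71 ± 0.44, edgeR adjusted p = 0.0102). In WT islets it had 0.868, 0.918 and 1.06 CPM with cytokines against 0.589, 0.199 and 0.550 CPM untreated (1.07 ± 0.44, edgeR adjusted p = 0.0889). Libraries with cytokines lay above untreated ones in every genotype, on 4 to 33 reads per library. The KO call was kept under 4 of 13 alternatives, with adjusted p from 0.0124 to 0.213, and the Het call under 12. Col6a5 was called lower in KO islets (-2.58 ± 0.85, edgeR adjusted p = 0.0294), where it had 0.741, 0.135 and 0.576 CPM with cytokines against 0.455, 0.690 and 7.74 CPM untreated. That call rests on untreated KO replicate 3, which held 236 reads where the other 2 untreated KO libraries held 12 and 17: without it the log2 fold change was -0.17 (edgeR adjusted p = 0.857, in a range over 13 alternatives of 0.00661 to 0.857). Col6a5 had 0.349, 0.656 and 0.822 CPM in Het islets with cytokines against 0.580, 1.33 and 1.52 CPM untreated, and 1.24, 0.709 and 0.744 CPM in WT islets with cytokines against 1.25, 1.39 and 1.32 CPM untreated, and it did not pass there, although the WT groups were separate. Col6a6 did not pass by edgeR in any genotype (-0.47, -0.45 and -0.47 in KO, Het and WT islets), and limma called it lower in WT islets.

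Among the fibril-associated collagens, which decorate fibrils without forming them, Col14a1 fell in all genotypes as described, and Col19a1 and Col20a1 fell in KO islets. Col20a1 (chromosome 2, 180986535 to 181018363, plus strand), whose role is little known, had 4.37, 3.18 and 3.72 CPM in KO islets with cytokines against 5.95, 6.45 and 5.44 CPM untreated, a log2 fold change of -0.66 ± 0.17 (edgeR adjusted p = 0.00689) that passed under all 13 alternatives. In Het islets it had 3.64, 3.76 and 5.18 CPM with cytokines against 5.84, 4.82 and 4.61 CPM untreated (-0.28 ± 0.17), and in WT islets 3.26, 3.71 and 4.23 CPM with cytokines against 3.39, 3.97 and 4.25 CPM untreated (-0.05 ± 0.17). The KO groups were separate and those of the other genotypes overlapped. Col19a1 had 0.388, 0.179 and 0.154 CPM in KO islets with cytokines against 0.834, 0.812 and 0.688 CPM untreated (-1.64 ± 0.47, edgeR adjusted p = 0.0151), on 4 to 22 reads per library, and the call was lost without KO cytokine replicate 2 (edgeR adjusted p = 0.0528) or 3 (edgeR adjusted p = 0.0662), over alternatives from 0.0107 to 0.0783. Its Het libraries had 0.155, 0.219 and 0.429 CPM with cytokines against 0.512, 0.559 and 0.658 CPM untreated (-1.08 ± 0.47, edgeR adjusted p = 0.113), and its WT libraries 0.455, 0.0417 and 0.274 CPM with cytokines against 0.589, 0.477 and 0.623 CPM untreated (-1.12 ± 0.49, edgeR adjusted p = 0.109). The Col19a1 groups did not overlap in any genotype. Col9a2, Col9a3, Col12a1 and Col16a1 did not pass by edgeR in any genotype, with log2 fold changes between -0.95 and 0.74. Limma called Col9a2 lower in KO and WT islets and Col12a1 lower in KO and Het islets. In WT islets it called 3 of the 7 members of this class lower.

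Of the endostatin-forming collagens of the basement membrane zone, Col15a1 fell in KO and Het islets and Col18a1 did not pass in any genotype. Col15a1 (chromosome 4, 47208161 to 47313167, plus strand) had 42.4, 27.4 and 55.3 CPM in KO islets with cytokines against 87.8, 83.4 and 106 CPM untreated (-1.15 ± 0.30, edgeR adjusted p = 0.00891), and 50.9, 58.3 and 42.8 CPM in Het islets with cytokines against 64.6, 144 and 143 CPM untreated (-1.21 ± 0.30, edgeR adjusted p = 0.00791). In WT islets it had 90.3, 57.2 and 45.8 CPM with cytokines against 92.3, 112 and 105 CPM untreated (-0.68 ± 0.30, edgeR adjusted p = 0.111). The treatments did not overlap in any genotype, and the KO and Het calls passed under all 13 alternatives. Of this class limma called 1 member lower in WT islets, and DESeq2 called 0. Col18a1 (chromosome 10, 77052178 to 77166548, minus strand) had 153, 114 and 169 CPM in KO islets with cytokines against 149, 125 and 149 CPM untreated. Het levels of Col18a1 were 154, 186 and 158 CPM with cytokines against 133, 206 and 198 CPM untreated, and WT levels were 222, 169 and 155 CPM with cytokines against 152, 187 and 168 CPM untreated. Its treatments overlapped in each genotype, with log2 fold changes of 0.04 ± 0.17, -0.11 ± 0.17 and 0.11 ± 0.17, whose sign turned when some single libraries were left out.

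Collagen IV, the network of basement membranes, showed no member past the threshold in any genotype, and 0 of the 6 chains were called by edgeR, DESeq2 or limma. At an unadjusted p under 0.05 there were 0, 0 and 1 in KO, Het and WT islets by edgeR and by DESeq2, and 0, 3 and 1 by limma. By edgeR 7300, 6232 and 6497 of all 17590 genes reached it. Col4a1 (chromosome 8, 11198423 to 11312826, minus strand) had 221, 144 and 244 CPM in KO islets with cytokines against 239, 208 and 321 CPM untreated. Het levels of Col4a1 were 253, 295 and 228 CPM with cytokines against 235, 358 and 347 CPM untreated, and WT levels were 379, 286 and 261 CPM with cytokines against 303, 353 and 315 CPM untreated. The treatments overlapped in each genotype. Its log2 fold changes were -0.33 ± 0.21, -0.28 ± 0.21 and -0.07 ± 0.21, with intervals of 2 SE of -0.75 to 0.09, -0.70 to 0.14 and -0.49 to 0.35 in KO, Het and WT islets. Col4a2 (chromosome 8, 11312805 to 11449287, plus strand) had 142, 90.6 and 162 CPM in KO islets with cytokines against 158, 141 and 227 CPM untreated. Het levels of Col4a2 were 170.4, 190.2 and 159 CPM with cytokines against 167, 241 and 226 CPM untreated, and WT levels were 250.2, 192 and 175 CPM with cytokines against 217, 249 and 213 CPM untreated (-0.42 ± 0.21, -0.29 ± 0.21 and -0.14 ± 0.21). Its groups also overlapped in every genotype. Col4a3, Col4a4, Col4a5 and Col4a6, the chains of the networks of kidney, lung and other specialised basement membranes, were read at 0.268 FPKM or less on average and had log2 fold changes between -0.75 and 1.03.

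Of the remaining members, Col8a1, a short-chain collagen of vessel walls, had 18.4, 17.2 and 21.1 CPM in KO islets with cytokines against 29.4, 20.2 and 22.1 CPM untreated (-0.34 ± 0.14, edgeR adjusted p = 0.0902). It had 13.8, 15.7 and 18.2 CPM in Het islets with cytokines against 22.3, 22.4 and 23.7 CPM untreated (-0.52 ± 0.15, edgeR adjusted p = 0.0162), and 17.4, 14.7 and 15.4 CPM in WT islets with cytokines against 19.4, 22.6 and 27.0 CPM untreated (-0.54 ± 0.15, edgeR adjusted p = 0.0128). The Het and WT groups were separate, the KO groups overlapped, and the Het call was lost without cytokine replicate 1 and the WT call without cytokine replicate 2 or untreated replicate 3. Col28a1, a collagen with von Willebrand factor domains known from peripheral nerve, had 3.25, 2.74 and 4.15 CPM in KO islets with cytokines against 8.38, 4.99 and 5.02 CPM untreated (-0.86 ± 0.29, edgeR adjusted p = 0.0330). Its Het libraries had 1.90, 3.54 and 3.64 CPM with cytokines against 4.64, 4.58 and 6.89 CPM untreated (-0.82 ± 0.29, edgeR adjusted p = 0.0480), and its WT libraries 2.40, 2.04 and 3.45 CPM with cytokines against 4.33, 5.68 and 4.03 CPM untreated (-0.83 ± 0.29, edgeR adjusted p = 0.0504). The treatments were separate in all 3 genotypes although the WT estimate missed the threshold by edgeR. DESeq2 and limma called Col28a1 lower in WT islets. The Het call was kept under 4 of 13 alternatives. The KO call was kept under 9 of 13, with adjusted p from 0.0135 to 0.185. Col7a1, of the anchoring fibrils of skin, and the transmembrane members Col13a1, Col17a1 and Col23a1 did not pass with cytokines by edgeR in any genotype, with log2 fold changes between -1.08 and 0.67. Limma called Col7a1 lower in Het, Col17a1 lower in KO and Het and Col13a1 lower in WT islets.

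Whether the cytokine response differed between genotypes was tested as an interaction, and 0 of 39 members passed in each of the 3 tests by edgeR, by DESeq2 and by limma. Of all genes 0.0114% passed for KO minus WT, 0.00569% in each direction, and 0% in the other 2 tests. At an unadjusted p under 0.05 there were 2 members for KO minus WT, 1 for Het minus WT and 0 for KO minus Het by edgeR and by DESeq2, and 3, 14 and 8 by limma. The member of smallest p was Col20a1 for KO minus WT (difference of log2 fold changes -0.61 ± 0.24, edgeR adjusted p = 0.636), Col4a5 for Het minus WT (-1.46 ± 0.61, edgeR adjusted p = 0.867) and Col10a1 for KO minus Het (1.27 ± 0.72, edgeR adjusted p = 0.860). For Col1a1 the Het minus WT difference was -0.84 ± 0.71 with an interval of 2 SE of -2.27 to 0.59, and for Col6a3 it was -0.91 ± 0.63 with -2.17 to 0.36. Calls made in 1 or 2 genotypes are thus not shown to differ from the others.

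Markers of mesenchymal cells (pericytes, stellate cells and smooth muscle; 11 genes, no collagens) moved along with the collagen genes. Their sum was 183, 114 and 301 CPM in KO islets with cytokines against 294, 279 and 501 CPM untreated, 161, 234 and 152 CPM in Het islets with cytokines against 225, 441 and 451 CPM untreated, and 265, 187 and 169 CPM in WT islets with cytokines against 277, 317 and 307 CPM untreated. Summed collagen CPM was 8.33 to 10.9 times the marker sum in every library. Of the 11 markers 7 fell and 1 rose in KO islets, 7 fell and 0 rose in Het islets, and 4 fell and 1 rose in WT islets. Of all genes 16.1%, 11.8% and 13.1% fell and 15.4%, 12.8% and 12.6% rose in KO, Het and WT islets. Cd248, a surface protein of fibroblasts and pericytes, fell in all 3 genotypes (-2.78 ± 0.50, -3.09 ± 0.52 and -2.55 ± 0.51), and so did the smooth muscle actin Acta2 (-1.29 ± 0.45, -2.15 ± 0.47 and -1.58 ± 0.46). Pdgfra, the receptor that marks fibroblasts, did not pass (0.10 ± 0.58, -0.15 ± 0.57 and 1.01 ± 0.58), and Pdpn, podoplanin, rose in KO and WT islets (1.76 ± 0.54 and 2.60 ± 0.56). None of the 11 markers averaged 0 in any group. In whole islets, fewer cells of a type and less RNA per cell cannot be told apart, and the part of mesenchymal cell content in the collagen changes was not tested. Among the other marker lists, endothelial markers fell for 1, 0 and 1 of 10 genes with cytokines in KO, Het and WT islets, and acinar markers and macrophage markers for 0 of 7 and 0 of 8 in each, with 0 that rose. Beta cell markers fell for 3 of 7 in each genotype, with 1 that rose in KO islets, and alpha cell markers for 2 of 5, while 2, 0 and 2 of 7 duct markers rose and 1, 0 and 1 of 7 Schwann cell markers fell.

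**Figure D4:**
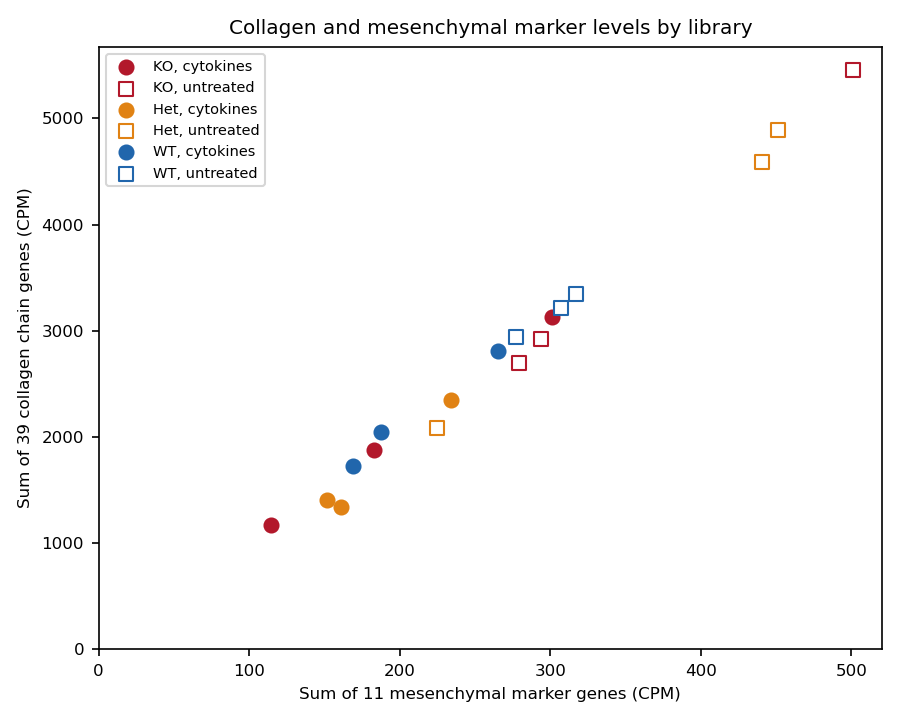
Summed CPM of the 39 collagen chain genes against summed CPM of 11 mesenchymal marker genes in each of the 18 libraries, with filled circles for cytokines and open squares for untreated islets. The points lie close to a line, from 1173 CPM of collagens in a KO library with cytokines to 5459 CPM in an untreated KO library.

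Genes that act on collagen after transcription were read as lists. Of all genes tested 15.4% rose and 16.1% fell in KO, 12.8% and 11.8% in Het, and 12.6% and 13.1% in WT islets. Of 18 enzymes and chaperones that modify and fold the chains, 4 rose and 3 fell in KO, 1 rose and 3 fell in Het, and 2 rose and 2 fell in WT islets. P4hb, the protein disulfide isomerase that is also the beta subunit of prolyl 4-hydroxylase, rose in all 3 genotypes (0.46 ± 0.07, 0.37 ± 0.07 and 0.31 ± 0.07 in KO, Het and WT islets), and P3h2, a prolyl 3-hydroxylase, fell in all 3 (-0.54 ± 0.14, -0.41 ± 0.14 and -0.51 ± 0.14). P4ha1, the catalytic subunit of prolyl 4-hydroxylase, rose in KO islets (0.59 ± 0.19), and P3h3 fell in KO and Het islets (-0.47 ± 0.13 and -0.42 ± 0.13). Of 7 export genes 0 rose and 3 fell in KO, 1 rose and 2 fell in Het, and 1 rose and 3 fell in WT islets. Mia3 (TANGO1), which loads procollagen into transport carriers, fell in KO and WT islets (-0.36 ± 0.08 and -0.33 ± 0.08), as did its partner Mia2 (-0.20 ± 0.07 and -0.27 ± 0.07). The COPII coat gene Sec23a fell in Het islets (-0.30 ± 0.07), and Creb3l1, a transcription factor of secretory cells that acts on collagen genes in bone, rose in Het and WT islets (0.40 ± 0.10 and 0.50 ± 0.10).

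Outside the cell, the protease gene Tll1, whose product removes the carboxy-terminal propeptide of fibrillar procollagens, rose in all 3 genotypes. It stood at 9.93 ± 0.447 CPM in KO islets with cytokines against 1.16 ± 0.388 CPM untreated, 9.56 ± 1.61 CPM with cytokines against 2.20 ± 0.494 CPM untreated in Het islets, and 9.02 ± 0.684 CPM with cytokines against 1.49 ± 0.403 CPM untreated in WT islets (mean ± SD, n = 3 each), with log2 fold changes of 3.08 ± 0.23, 2.12 ± 0.22 and 2.59 ± 0.22 (edgeR adjusted p = 8.30e-08, 2.95e-06 and 7.58e-07). The libraries did not overlap between treatments. The enhancers of that cleavage fell where they passed, Pcolce in Het (-1.67 ± 0.51) and Pcolce2 in KO and Het islets (-1.40 ± 0.44 and -1.42 ± 0.45), so that of 7 tested propeptide genes 1 rose and 1 fell in KO, 1 rose and 2 fell in Het, and 1 rose and 0 fell in WT islets. Of the 5 lysyl oxidases, which cross-link collagen, 0 rose and 2, 1 and 1 fell in KO, Het and WT islets: Loxl3 fell in all 3 (-1.52 ± 0.33, -1.87 ± 0.34 and -1.53 ± 0.34) and Loxl4 in KO islets (-1.12 ± 0.32). Of all genes 31.5%, 24.6% and 25.8% were called either way in KO, Het and WT islets.

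Of 9 collagen receptors 2 rose and 1 fell in KO, 1 rose and 3 fell in Het, and 2 rose and 2 fell in WT islets. Of all genes 31.5%, 24.6% and 25.8% were called either way in KO, Het and WT islets. Itga2, the integrin alpha chain of epithelia and platelets, stood at 73.0 ± 2.41 CPM in KO islets with cytokines against 19.4 ± 4.10 CPM untreated, 90.8 ± 10.9 CPM with cytokines against 39.5 ± 15.1 CPM untreated in Het islets, and 95.1 ± 12.4 CPM with cytokines against 33.0 ± 2.63 CPM untreated in WT islets (mean ± SD, n = 3 each). It rose by 1.91 ± 0.22, 1.20 ± 0.21 and 1.53 ± 0.22 on the log2 scale. Itga11, the integrin chain of fibroblasts, fell in Het and WT islets (-2.68 ± 0.54 and -1.74 ± 0.52), Itga1 in KO islets (-1.08 ± 0.26) and Mrc2, the uptake receptor Endo180, in Het islets (-1.56 ± 0.46). Of 7 small proteoglycans that bind fibrils, 0 rose and 3, 3 and 2 fell in KO, Het and WT islets, where 16.1%, 11.8% and 13.1% of all genes fell. Asporin, Aspn, fell in all 3 genotypes (-3.25 ± 0.53, -2.52 ± 0.54 and -2.73 ± 0.53), osteoglycin, Ogn, in KO and WT (-3.05 ± 0.76 and -2.53 ± 0.84), fibromodulin, Fmod, in KO and Het (-1.90 ± 0.62 and -2.95 ± 0.65) and biglycan, Bgn, in Het islets (-1.41 ± 0.46). Nid1, a nidogen that links laminin to collagen IV, fell in KO islets, with log2 fold changes of -0.51 ± 0.19, -0.39 ± 0.19 and -0.14 ± 0.19 in KO, Het and WT islets.

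The second question was how collagen transcripts differed between genotypes within a treatment. Col13a1 (chromosome 10, 61838236 to 61979108, minus strand), a transmembrane collagen that helps to form the neuromuscular junction, was below WT levels in KO islets under both treatments. It had 14.1, 9.42 and 15.0 CPM in KO islets with cytokines against 27.9, 19.9 and 19.7 CPM in WT islets with cytokines, a log2 fold change of -0.80 ± 0.15 (edgeR adjusted p = 0.00771). Untreated, it had 16.2, 16.9 and 16.4 CPM in KO islets against 24.4, 28.5 and 23.6 CPM in WT islets (-0.63 ± 0.15, edgeR adjusted p = 0.0342). No KO library reached the lowest WT library of its treatment, and Het libraries had 21.5, 19.1 and 20.7 CPM with cytokines and 21.6, 22.1 and 22.3 CPM untreated. With cytokines the call was lost when only the 2 groups were fitted (edgeR adjusted p = 0.0771, in a range over 13 alternatives of 4.26e-05 to 0.0771). Untreated it was lost without any 1 of the 6 libraries, with adjusted p up to 0.122 and a log2 fold change between -0.68 and -0.53. Col13a1 was the member called in these comparisons by edgeR, 1 of 39, where 3.85% of all genes were called lower, 1.48% higher and 5.34% either way with cytokines. Untreated, 2.48% were called lower, 0.563% higher and 3.04% either way. KO libraries lay apart from WT libraries for 3 lower and 2 higher members with cytokines, where 16% and 14.5% of all genes did so, and for 5 lower and 5 higher members untreated, where 14.7% and 11% did so.

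**Figure D5:**
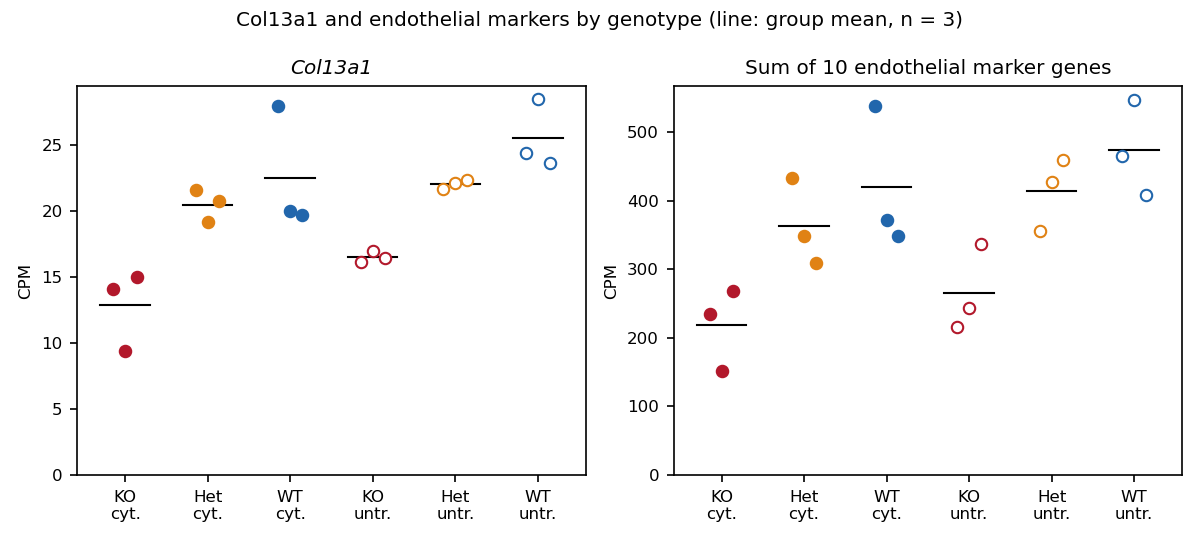
CPM per library of Col13a1 (left) and of the sum of 10 endothelial marker genes (right) in KO, Het and WT islets with cytokines (filled) and untreated (open), with a line at the mean of 3 libraries. KO libraries lie below WT libraries of the same treatment in both panels.

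Collagen IV chains were also lower in KO islets by estimate, with cytokines and untreated. Against WT islets with cytokines, the log2 fold change was -0.60 ± 0.21 for Col4a1 (edgeR adjusted p = 0.102), -0.65 ± 0.21 for Col4a2 (edgeR adjusted p = 0.0822) and -1.57 ± 0.45 for Col4a5 (edgeR adjusted p = 0.0560), and all 6 chains had negative estimates. Untreated, all 6 estimates against WT islets were negative as well, from -0.98 to -0.34, with 0 at an unadjusted p under 0.05 by edgeR. Col4a1 and Col4a2 did not overlap between KO and WT libraries with cytokines. With cytokines, Col4a1, Col4a2 and Col4a5 passed with DESeq2 and with limma, which gave 4 called members each. They also passed after KO replicate 3 was left out in both treatments, which gave 4 as well. Of all 17590 genes DESeq2 called 1587, limma 4058 and the fit without KO replicate 3 called 1870. The 4 of 39 members were thus near or below the share of all genes. Col4a5 had 1.06, 0.493 and 1.31 CPM in KO islets with cytokines, against 4.79, 2.59 and 1.25 CPM in WT islets with cytokines, and Het islets with cytokines had 1.86, 2.15 and 1.97 CPM. Untreated, the KO libraries had 0.758, 0.812 and 1.11 CPM, the Het libraries 1.30, 2.87 and 3.88 CPM and the WT libraries 1.32, 1.39 and 1.50 CPM. WT islets with cytokines had the widest spread, from 1.25 to 4.79 CPM. In untreated KO against WT islets, 3 members had an unadjusted p under 0.05 by edgeR, as did 3254 of all 17590 genes. DESeq2 called Col20a1 higher there besides Col13a1 lower, with limma adding Col11a2. Of all genes DESeq2 called 929 and limma 1756 in that comparison.

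Markers of other cell types differed between the genotypes as well. The sum of 10 endothelial markers was 234, 152 and 269 CPM in KO islets with cytokines against 538, 372 and 349 CPM in WT islets with cytokines, and 216, 243 and 337 CPM in untreated KO islets against 465, 547 and 409 CPM in untreated WT islets. Of the 10 markers 6 were called lower in KO than in WT islets with cytokines and 2 untreated, among them Kdr, the VEGF receptor (-1.05 ± 0.19 and -1.09 ± 0.18). Of all genes edgeR called 3.85% lower and 1.48% higher with cytokines, and 2.48% lower and 0.563% higher untreated. The sum of 8 acinar markers was 596, 1309.6 and 1418 CPM in KO islets with cytokines against 4588, 8652 and 7598 CPM in WT islets with cytokines, and 1298, 1964 and 1266 CPM in untreated KO against 6740.2, 6685 and 6535 CPM in untreated WT islets, with all 7 tested markers called lower in both treatments. Of the mesenchymal markers 0 of 11 were called in either treatment, with 1 in each at an unadjusted p under 0.05. Of 7 duct markers 2 were called lower in KO islets in each treatment. Of 7 beta cell markers 1 was called higher in each treatment, and of 8 macrophage markers 0 with cytokines and 1 higher untreated. The part of endothelial, acinar, duct, beta or macrophage cell content in the KO values of Col13a1 and collagen IV was not tested.

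Between Het and WT islets 0 members were called by edgeR, DESeq2 or limma in either treatment. At an unadjusted p under 0.05 there were 0 members with cytokines and 3 untreated by edgeR and by DESeq2, and 6 with cytokines and 9 untreated by limma. Of all genes edgeR called 0% with cytokines and 0.00569% untreated. Untreated, 1254 of all 17590 genes had an unadjusted p under 0.05 by edgeR. Het libraries lay apart from WT libraries for 1 lower and 1 higher member with cytokines, where 8.16% and 7.71% of all genes did so, and for 1 lower and 3 higher members untreated, where 7.24% and 3.46% did so. The member of smallest p untreated was Col27a1, a minor fibril-forming chain, with 76.8, 75.3 and 74.4 CPM in untreated Het islets against 59.9, 61.2 and 54.6 CPM in untreated WT islets. Its log2 fold change was 0.37 ± 0.13 (edgeR adjusted p = 0.527). With cytokines it was Col24a1, on 11, 8 and 7 reads in Het and 4, 2 and 4 reads in WT islets (1.22 ± 0.59, edgeR adjusted p = 0.715). The Het and WT libraries did not overlap for either gene. Col1a1 differed by -0.59 ± 0.51 with cytokines and 0.25 ± 0.50 untreated, with intervals of 2 SE of -1.60 to 0.42 and -0.75 to 1.26.

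KO and Het islets likewise had 0 members called by edgeR in either treatment, with 3 at an unadjusted p under 0.05 with cytokines, where 0% of all genes passed, and 4 untreated, where 0.00569% passed. KO libraries lay apart from Het libraries for 4 lower and 2 higher members with cytokines, where 7.83% and 6.37% of all genes did so, and for 2 lower and 1 higher untreated, where 6.32% and 5.07% did so. With cytokines Col13a1 had the smallest p, with 14.1, 9.42 and 15.0 CPM in KO against 21.5, 19.1 and 20.7 CPM in Het islets (-0.67 ± 0.15, edgeR adjusted p = 0.280), without overlap, and it passed with DESeq2 and limma. Untreated, Col4a5 had 0.758, 0.812 and 1.11 CPM in KO against 1.30, 2.87 and 3.88 CPM in Het islets (-1.57 ± 0.45, edgeR adjusted p = 0.164), also without overlap. DESeq2 called this gene alone, and limma called Col4a4, Col4a5, Col4a6 and Col18a1 lower in untreated KO islets. Of all 17590 genes DESeq2 called 329 and limma 2279 there. Without untreated Het replicate 1, edgeR called Col4a4, Col4a5 and Col4a6, and 1938 of all genes. Neither limma nor that fit called members at a higher rate than all genes.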

How the data were processed

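RNA-seq of islets was read from 1 table of counts per gene, in which the authors deposited unnormalised whole-number counts for 18 libraries and 55536 genes. Per the submitters' processing notes, which give no role or order, reads were handled with featureCounts 1.6.2, STAR 2.5.2a, cutadapt 1.16, FastQC 0.11.7 and DESeq2 1.30.0 on build GRCm38. The strand setting of the counting is not given in any source used here. Groups and replicate numbers were taken from the labels. Genes with too few reads were removed with filterByExpr (minimum count 10), leaving 17590, libraries were scaled with TMM factors, and 1 quasi-likelihood model over 6 groups with 12 residual degrees of freedom was fitted in edgeR 4.0.16 (R 4.3.3). Each of 12 comparisons was a contrast of this model, with 2-sided p-values adjusted over all genes tested (Benjamini-Hochberg) and a threshold of 0.05. Genes were joined to GENCODE M21 by identifier for position and exon length, and all 55536 identifiers matched. Groups were said not to overlap where all 3 libraries of one lay on the same side of all 3 of the other. Each error given with ± beside a log2 fold change is 1 SE, and intervals span 2 SE on each side.

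The collagen genes, their classes and the marker and pathway lists were chosen with earlier results of these data known. Values in every library are given for 12 chains fixed by name, for up to 12 others with the smallest adjusted p among those called in any comparison, and for the member of smallest p in each comparison without calls. Of each pathway list, up to 4 genes that passed with the largest change with cytokines are named, and other list genes were chosen after their values were seen. Results for 2 list genes are not reported here. Totals per library ran from 22990164 to 29946680 reads, and counting error limits the rarest members. Alternatives were DESeq2 1.42.0, limma 3.58.1 (voom with quality weights), relative log expression size factors, no low-count filter, a fit of the compared groups only, a block for the replicate number, and each library left out. After the data were seen, 2 further alternatives left out Het replicate 1 or KO replicate 3 in both treatments. The test was checked on simulated counts made from the means and depths of these libraries. Those counts were drawn for each gene separately, so the check does not cover shifts of many genes together in 1 library.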

Additional observations from a re-analysis of the deposited data

How the results depend on the processing

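The counts of called collagen genes are 9, 15 and 4 with cytokines in KO, Het and WT islets, 1 for KO against WT in each treatment, and 0 for the other genotype comparisons and the interactions. They stayed within 1.5 times these values with relative log expression size factors and without the low-count filter. DESeq2 called 2 for KO against WT untreated, 4 for KO against WT with cytokines, and 1 for KO against Het in each treatment. Limma called 17 in KO and 16 in WT islets with cytokines, 3 for KO against WT untreated, 4 with cytokines, 4 for KO against Het untreated and 1 with cytokines. The counts over all genes moved too: for KO against WT with cytokines DESeq2 called 1587 and limma 4058, where edgeR called 939. With only the compared groups in the fit, 8 were called in Het and 14 in WT islets with cytokines, and 0 for KO against WT with cytokines. A block for the replicate number gave 18 in KO, 17 in Het and 7 in WT islets. It left the genotype comparisons at 1 for KO against WT in each treatment and 0 otherwise, and the interactions at 0. Across genotypes the block joined libraries by replicate number. The sample titles number Het libraries 1, 2 and 4 and the others 2, 3 and 4. Deviations of same-numbered treated and untreated libraries from their group means correlated between -0.310 and 0.481 over 9 pairs. Most libraries with cytokines correlated best with the untreated library of the same number. The exceptions were KO replicate 2 and Het replicate 3, which correlated best with untreated replicate 1 of their genotype (0.372 and 0.469). Pairing by number is thus neither shown nor excluded, and the main fit did not use it. Leaving out 1 library at a time gave 6 to 14 in KO, 6 to 15 in Het and 3 to 7 in WT islets with cytokines, 0 to 0 for KO against WT untreated, 1 to 3 for KO against WT with cytokines, 0 to 3 for KO against Het untreated, and 0 in the others. Without Het replicate 1 in both treatments 3 were called for KO against Het untreated, where 1663 of all genes were called. Without KO replicate 3 in both treatments 0 were called for KO against WT untreated and 4 with cytokines. Calls kept under every alternative were those of Col10a1 and Col14a1 in all genotypes, Col25a1 in Het and WT, Col15a1 in KO and Het, Col20a1 in KO and Col6a3 in Het islets. The sign of the cytokine estimate turned under at least 1 alternative for 11 of 39 members in KO, 7 in Het and 10 in WT islets. Col18a1, Col20a1 and Col4a1 were among these. Over single libraries left out, Col18a1 in KO islets had log2 fold changes of -0.0517 at the lowest and 0.19 at the highest, with -0.035 without untreated replicate 2, and it had -0.0046 without replicate 3 in both treatments. It had -0.28 and 0.0058 in Het islets, and -0.0577 and 0.21 in WT islets. Col20a1 in WT islets had -0.15 and 0.0397, with 0.02 without untreated replicate 3, and Col4a1 in WT islets had -0.24 and 0.0395. The causes were not tested. Members with few reads, such as Col24a1, Col11a1 and Col4a3, are limited by depth.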
